A study of Mus musculus with 6 samples.

Results

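The D-type cyclins and the genes that control their kinases in the G1 phase of the cell cycle were measured by bulk RNA-seq in mouse embryonic stem cells (mESCs) and in cardiac precursor cell cultures (CPCCs) derived from them. The 10 genes were picked by symbol, with the rise of *Ccnd2* in CPCCs known, and they are 10 of the 16279 genes listed in either of the 2 gene count tables. Both tables list 9 of them, and *Cdkn2a* is listed only for CPCCs. Because the contrast between the cell types chose these genes, their differences are given as a description and without p-values.

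The mESCs were male F1 cells from a C57BL/6 mother and a CAST/EiJ father, grown from 3 blastocysts as single-cell-derived clones without feeders, in serum medium with LIF, the MEK inhibitor PD0325901 and the GSK3 inhibitor CHIR99021. The CPCCs came from the same clones through embryoid bodies treated with ascorbic acid, and were then passaged in serum medium with EGF and FGF2. The cell types thus differed in medium as well, and the effects of medium and cell type cannot be told apart. Each cell type had 3 libraries, here named by their columns, from S01 to S03 in mESCs and from S04 to S06 in CPCCs. Levels are given in CPM, the reads of a gene per 1000000 counts of its library, after TMM normalization, a scaling of library sizes, and a level per kb is the CPM divided by the length of the mRNA in kilobases. The mESC libraries held 6442639 to 6907330 counts and the CPCC libraries 8468819 to 11436062, so that 3 counts in 1 library equalled 0.448 CPM in mESCs against 0.335 CPM in CPCCs on average.

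The labels call the second group cardiac precursor cultures, and its markers were mixed. Summed over 7 pluripotency genes, the level was 3568 to 3803 CPM in mESC libraries and 107 to 184 CPM in CPCC libraries. The 8 cardiac progenitor markers summed to 44.9 to 156 CPM in CPCCs against 3.97 to 4.68 CPM in mESCs, with *Tbx5* missing from the CPCC table and *Nkx2-5* at 1.59, 0 and 0.917 CPM in S04, S05 and S06. Much higher were the sums of 9 fibroblast or mesenchyme markers, at 6087 to 9353 CPM in CPCCs against 12.0 to 18.7 CPM in mESCs, and of 4 smooth muscle markers, at 5934 to 11069 CPM and 0.441 to 1.32 CPM. Neural markers (5 genes) summed to 567 to 593 CPM in CPCCs against 41.9 to 47.8 CPM in mESCs, while 5 endothelial markers stood at 13.1 to 25.4 CPM and 108 to 122 CPM. The endothelial markers were mixed. *Pecam1* and *Vwf* averaged 91.1 and 17.7 CPM in mESCs against 4.44 and 1.20 CPM in CPCCs. *Tek* overlapped between the groups, and *Cdh5* and *Kdr*, listed only for CPCCs, averaged 5.15 and 3.34 CPM there. Of the 4 blood markers, *Ptprc* and *Itgam* are listed only for CPCCs, where they summed to at most 22.3 CPM, and *Hba-a1* and *Hbb-b1* are in neither table. Endoderm markers stood at 13.7 to 47.8 CPM in CPCCs against 0.927 to 2.78 CPM in mESCs, with *Afp*, *Ttr* and *Apoa1* in neither table. The mESC sums leave out genes that the mESC table does not list, which were 5 mesenchyme markers (*Col1a2*, *Col3a1*, *Postn*, *Lum* and *Dcn*), 4 cardiac progenitor markers (*Nkx2-5*, *Mef2c*, *Hand2* and *Myh6*), 3 smooth muscle markers (*Tagln*, *Cnn1* and *Myh11*), 2 endothelial markers (*Cdh5* and *Kdr*) and the neural marker *Pax6*, so that *Acta2* alone gave the smooth muscle value of mESCs. The part of these cell types in the differences below was not tested. In such bulk samples, fewer cells of a type and less RNA per cell cannot be told apart.

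Cells enter the cycle when growth factor signals raise the D cyclins, which bind the kinases CDK4 and CDK6. The active kinases phosphorylate the retinoblastoma protein RB1, which then releases E2F factors to switch on the genes of DNA synthesis. INK4 inhibitors, encoded by *Cdkn2a* and *Cdkn2b*, block CDK4 and CDK6 themselves, whereas p21 and p27, encoded by *Cdkn1a* and *Cdkn1b*, act on assembled cyclin and kinase complexes. Embryonic stem cells are known for a short G1 phase and for high cyclin E and CDK2 activity.

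Of the 9 members tested, 6 were called higher and 1 lower in CPCCs (edgeR's quasi-likelihood test, Benjamini-Hochberg adjusted p under 0.05), and 2 were not called. Over all 12471 genes tested, 31.7% were called higher, 29.7% lower and 61.4% either way. The libraries of the cell types did not overlap for 7 of the 9 members, as for 69.7% of all genes tested. On the log2 scale, the fold change of CPCCs over mESCs had a median of 2.15 over the 9 members and 0.031 over all genes tested. Since the rule used this contrast, nothing is read from these counts. They were the same without S04, and without S01 or S03 5 members were called higher, *Ccnd1* being the one lost.

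**Figure D1:**
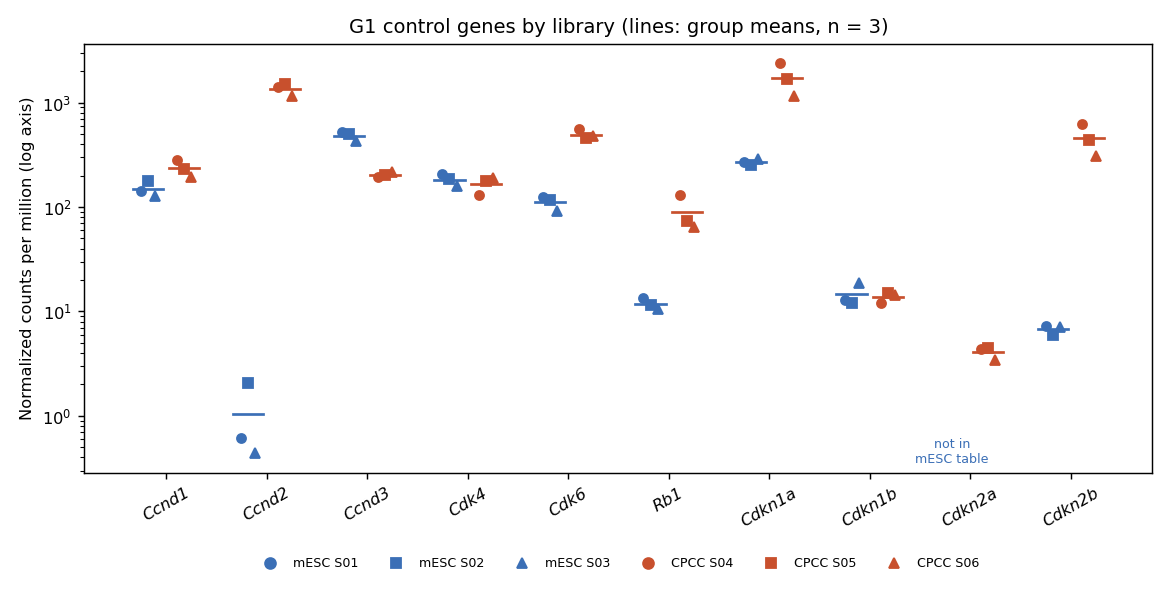
Levels of the 10 members in each library, in normalized CPM on a log axis; blue marks are the mESC libraries S01 to S03, orange marks the CPCC libraries S04 to S06, and lines the group means (n = 3). *Ccnd2* goes from at most 2.06 CPM in mESCs to at least 1151 CPM in CPCCs, *Cdk4* and *Cdkn1b* overlap between the groups, and *Cdkn2a* has no mESC value because its table does not list the gene.

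*Ccnd2* (chr6:127125709-127151049), which encodes cyclin D2, a D cyclin induced by growth factor signals in many tissues, was counted 4, 14 and 3 times in S01, S02 and S03, against 14157, 12479 and 10047 times in S04, S05 and S06. Normalized, these were 0.618, 2.06 and 0.439 CPM for mESCs, with 1407, 1513 and 1151 CPM for CPCCs. The mESC libraries S01 and S03 lay close to the level of 3 counts, and the lowest CPCC library, S06, lay far above both. This gave a log2 fold change of 10.32 (standard error 0.43), the value that put the gene and its pathway on the list. It was the third-largest rise of the 12471 genes tested, a ranking without the genes listed only for CPCCs. Against 3 counts per library in mESCs, *Tagln*, *Col1a2* and *Col3a1*, listed only for CPCCs, were at least 8176-, 5302- and 3729-fold higher there. From the summed counts of 21 and 36683, the ratio of levels was 1299, with a 95% exact interval of 850 to 2099 that covers counting error only. By CPM, *Ccnd2* ranked 12610 in mESCs and 52 of 15519 genes in CPCCs. Without 1 library at a time, the log2 fold change lay between 9.96 and 11.30.

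*Ccnd3* (chr17:47505051-47599689) encodes cyclin D3, known for its role in lymphocytes and muscle precursors, and was the member called lower in CPCCs. It had 517, 496 and 426 CPM in the mESC libraries and 195, 201 and 216 CPM in the CPCC libraries. The highest CPCC library was thus below the lowest mESC library. The fitted log2 fold change was -1.24 (standard error 0.15), with mESCs 2.35-fold above CPCCs, and leaving out 1 library gave -1.31 to -1.18. In the GENCODE M21 annotation, its last exons overlap 361 bases of *Bysl* on the opposite strand, a ribosome assembly gene with a log2 fold change of -1.07. As it is not stated whether counting used the strand, reads of the overlap cannot be assigned.

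*Ccnd1* (chr7:144929931-144939926), encoding cyclin D1, the D cyclin best known as a target of growth factor and Wnt signals, had 142, 177 and 127 CPM in mESCs against 281, 230 and 195 CPM in CPCCs. The groups did not overlap, but the gap between S02 and S06 was smaller than the spread within either group. The log2 fold change was 0.66 (standard error 0.20), which ranked 4269 among the rises, and it went to 0.63 without S01 and 0.56 without S03, where the gene was no longer called. In the GENCODE M21 annotation, *Ccnd1* shares 1100 exonic bases, or 23.4% of its exons, with the opposite-strand gene *LTO1*. By the positions used here, the opposite-strand gene *Oraov1* (chr7:144915100-144930749) ends inside *Ccnd1*. *Oraov1* had a log2 fold change of 2.35.

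As shares of their summed CPM, the D cyclins stood in another order in each cell type. In mESCs *Ccnd3* held 76.3% ± 2.53 of the D cyclin sum, *Ccnd1* 23.6% ± 2.41 and *Ccnd2* 0.159% ± 0.126 (SD, n = 3). In CPCCs *Ccnd2* held 75.4% ± 2.18, *Ccnd1* 13.1% ± 1.64 and *Ccnd3* 11.5% ± 2.03 (SD, n = 3). The order of *Ccnd1* and *Ccnd3* there is that of the means, as in S06 *Ccnd3* held 13.8% and *Ccnd1* 12.5%. Because the mRNA of *Ccnd2* is 6330 bases long and that of *Ccnd3* 2113 bases, levels per kb give another split. Per kb, *Ccnd3* held 85.1% in mESCs and 26.0% in CPCCs, and *Ccnd2* 0.060% and 57.2%. The share of *Ccnd1* went from 23.6% down to 13.1% by CPM but from 14.9% to 16.8% per kb, where the libraries overlapped, so its direction depends on the scale. Summed over the 3 D cyclins, the level was 554 to 676 CPM in mESCs against 1563 to 1944 CPM in CPCCs. Per kb the sums were 236 to 283 in mESCs and 337 to 395 in CPCCs, a narrower gap.

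**Figure D2:**
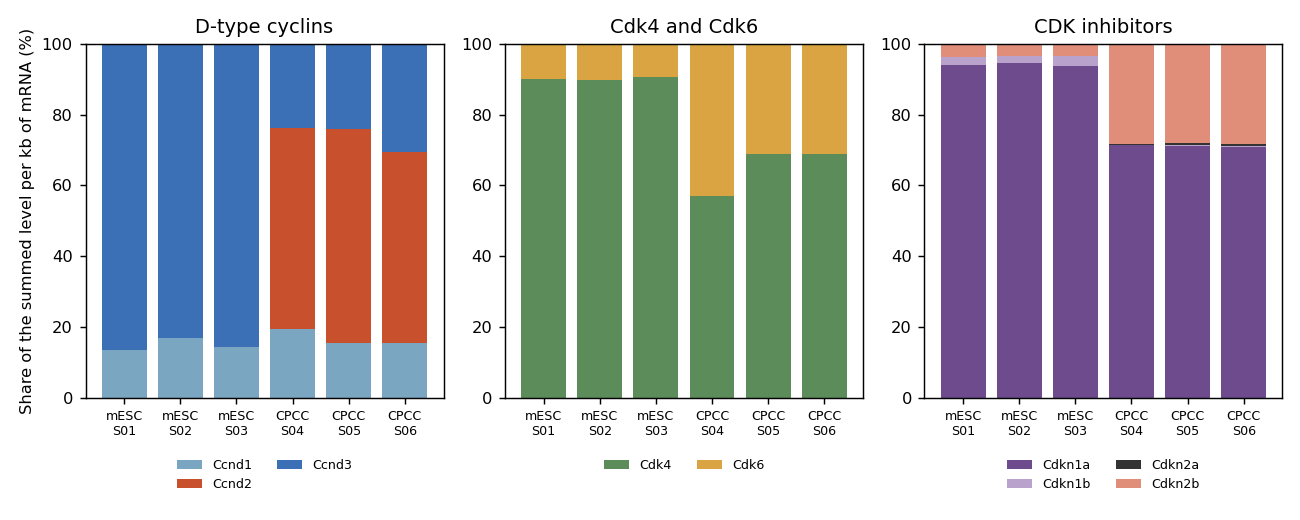
Stacked bars give the share of each gene in the summed level per kb of mRNA (percent) of the D cyclins, of *Cdk4* and *Cdk6*, and of the CDK inhibitors, with 1 bar per library. *Ccnd3* holds 85.1% of the D cyclin sum in mESCs and *Ccnd2* 57.2% in CPCCs on average, and *Cdkn2b* holds 28.0% to 28.3% of the inhibitor sum in the 3 CPCC libraries; *Cdkn2a* is drawn at 0 in mESCs, whose table does not list it.

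Among 12470 other genes tested, *Nrp1*, *Col1a1* and *Igfbp7* had the pattern nearest to that of *Ccnd2*. Their root mean square distances were 0.96, 1.08 and 1.09 in log2 CPM over the 6 libraries. Genes listed only for CPCCs were not compared, such as *Col3a1*, at 1703, 2075 and 1233 CPM in S04, S05 and S06. *Nrp1*, a coreceptor for VEGF and semaphorins, had 0.927, 1.77 and 1.46 CPM in mESCs against 982, 617 and 478 CPM in CPCCs. *Col1a1*, a chain of type I collagen, had 0.927, 0.588 and 0.146 CPM in mESCs against 3209, 3535 and 2402 CPM in CPCCs. *Igfbp7*, a secreted IGF-binding protein, had 0.618, 1.47 and 2.19 CPM in mESCs against 927, 675 and 443 CPM in CPCCs. Like *Ccnd2*, each was near the level of a few counts in mESCs. *Col1a1* is also 1 of the 9 mesenchyme markers above.

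Of the kinases, *Cdk6* was called higher in CPCCs and *Cdk4* was not called. *Cdk6* (chr5:3343893-3531006) had 124, 118 and 91.8 CPM in mESCs against 555, 454 and 473 CPM in CPCCs. The groups were well apart, at a log2 fold change of 2.15 (standard error 0.18), or 4.44-fold. *Cdk4* (chr10:127063535-127067289) had 205, 186 and 158 CPM in mESCs against 131, 178 and 188 CPM in CPCCs. Here S05 and S06 lay within the range of the mESCs and S04 lay below it. The log2 fold change of -0.15 (standard error 0.19) was not called, and it was 0.013 without S04. In the GENCODE M21 annotation, *Cdk4* shares 641 exonic bases, 19.7% of its exons, with *Tspan31* on the opposite strand. By the positions used here, *Tspan31* (chr10:127067290-127070262) lies next to *Cdk4* without overlap. It is a tetraspanin gene with a log2 fold change of 1.12.

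By CPM, *Cdk4* held 61.2% to 63.3% of the sum of both kinases in mESCs and 19.0% to 28.4% in CPCCs. The mRNA of *Cdk6*, at 11525 bases, is much longer than that of *Cdk4*, at 2053 bases. Per kb, *Cdk4* held 89.9% to 90.6% in mESCs and 56.9% to 69.0% in CPCCs and so remained the higher of the pair in every library. The summed level per kb of both kinases was 85.1 to 110 in mESCs and 112 to 132 in CPCCs.

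*Rb1* (chr14:73195502-73325792), the substrate of these kinases and a brake on E2F factors, had 13.4, 11.5 and 10.5 CPM in mESCs against 131, 72.6 and 64.1 CPM in CPCCs. All CPCC libraries lay above all mESC libraries, and S04 was the highest. With the fit, *Rb1* had a log2 fold change of 2.92 (standard error 0.30), between 2.55 and 3.12 with 1 library left out. In the GENCODE M21 annotation, *Lpar6* and *Rcbtb2* overlap the exons of *Rb1* by 408 and 488 bases on the opposite strand. Their log2 fold changes were 4.88 and 3.72. By the positions used here, *Rcbtb2* (chr14:73142510-73184055) ends before *Rb1* starts, while *Lpar6* (chr14:73237891-73240359) lies within the span of *Rb1*. Reads of any overlap cannot be assigned.

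*Cdkn1a* (chr17:29090979-29100723), which encodes p21, an inhibitor best known as a target of p53, was the most abundant inhibitor in both cell types. It had 269, 254 and 290 CPM in mESCs against 2364, 1672 and 1151 CPM in CPCCs. The lowest CPCC library was well above the highest mESC library, and S04 was about as far above S05 as S05 was above S06 on a log scale. The log2 fold change was 2.67 (standard error 0.25), or 6.38-fold, and by CPM the gene ranked 30 in CPCCs and 695 in mESCs.

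*Cdkn2b* (chr4:89306289-89311033), encoding the INK4 inhibitor p15, a known target of TGF-beta signals, had 7.26, 5.88 and 7.17 CPM in mESCs against 625, 439 and 308 CPM in CPCCs. The mESC libraries were close together, while S04 lay above S05 and S05 above S06, as for *Cdkn1a*. The log2 fold change was 6.07 (standard error 0.31), which ranked 107 among the rises. *Cdkn2a* (chr4:89274473-89294620), its neighbour, encodes the INK4 inhibitor p16 and, from another first exon and reading frame, p19ARF, a p53 activator, and a gene count cannot tell the products apart. It is missing from the mESC table and had 44, 37 and 30 counts, or 4.37, 4.49 and 3.44 CPM, in the CPCC libraries. Against 3 counts per library in mESCs it was at least 9.15-fold higher. Side by side in CPCCs, *Cdkn2a* had 4.58 CPM per kb and *Cdkn2b* 329 CPM per kb.

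*Cdkn1b* (chr6:134920401-134925526), encoding p27, an inhibitor regulated largely through protein turnover, had 13.0, 11.9 and 18.9 CPM in mESCs against 12.0, 14.9 and 14.4 CPM in CPCCs. The CPCC libraries lay within the range of the mESC libraries. The log2 fold change of -0.08 (standard error 0.28) was not called, and its sign turned without S03 (0.15) and without S04 (0.022).

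In the GENCODE M21 annotation, other opposite-strand genes overlap the exons of *Ccnd2* by 372 bases (*Gm43126*) and 368 bases (*9330179D12Rik*), of *Cdk6* by 368 bases (*Gm17590*) and of *Cdkn1a* by 273 bases (*AC167363.2*). None of these is listed in either table. *Gm12610*, whose span on the opposite strand covers *Cdkn2b*, is listed only for CPCCs, with 0, 9 and 1 counts in S04, S05 and S06.

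Summed over the 4 inhibitors, the mESC libraries had 289, 272 and 316 CPM, and S04, S05 and S06 had 3005, 2130 and 1477 CPM. The spread among CPCC libraries was wide (2204 ± 767 CPM, SD, n = 3). Its make-up was even: *Cdkn2b* held 20.8%, 20.6% and 20.9% and *Cdkn1a* 78.7%, 78.5% and 77.9% of the sum in S04, S05 and S06. In mESCs *Cdkn1a* held 91.8% to 93.5% and *Cdkn2b* 2.16% to 2.51%. The ratio of the inhibitor sum to the D cyclin sum was 0.403 to 0.571 in mESCs and 0.945 to 1.60 in CPCCs by CPM, and 0.457 to 0.631 and 2.32 to 4.09 per kb.

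In order of their level per kb, the mESC genes ran *Ccnd3* (227), *Cdkn1a* (130), *Cdk4* (89.1), *Ccnd1* (39.8), *Cdk6* (9.66), *Cdkn2b* (4.87), *Cdkn1b* (3.20), *Rb1* (2.54) and *Ccnd2* (0.164 CPM per kb). Of the neighbours in this order, *Cdkn1b* and *Rb1* overlapped between libraries. The order in CPCCs was *Cdkn1a* (831), *Cdkn2b* (329), *Ccnd2* (214), *Ccnd3* (96.5), *Cdk4* (80.5), *Ccnd1* (63.0), *Cdk6* (42.9), *Rb1* (19.2), *Cdkn2a* (4.58) and *Cdkn1b* (3.03 CPM per kb). Here *Cdkn2b* overlapped *Ccnd2*, and *Cdk4* overlapped *Ccnd1*.

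The sequences just upstream of *Cdkn1a*, *Cdkn2b* and *Cdkn2a* are shown because these inhibitor genes were called higher in CPCCs or listed only for them. RefSeq's table for GRCm38.p6 gives 10 windows for 7 members, and none for *Ccnd1*, *Ccnd2* and *Rb1*. Motifs were chosen with the windows in view and searched on both strands of the 250 bases before each start. They were GGGCGG (the GC box), TATAAA (the TATA box), TGACGTCA (the cAMP response element), TGACTCA (the AP-1 site) and, by name, the p53 half-site. For E2F, either TTTCCCGC counted as a match or the related form TTTGGCGC. Bases that GENCODE counts to the gene were left off, capitals mark matches, and each line reads 5′ to 3′ towards the gene.
Cdkn1a, chr17:29090729-29090975, plus strand: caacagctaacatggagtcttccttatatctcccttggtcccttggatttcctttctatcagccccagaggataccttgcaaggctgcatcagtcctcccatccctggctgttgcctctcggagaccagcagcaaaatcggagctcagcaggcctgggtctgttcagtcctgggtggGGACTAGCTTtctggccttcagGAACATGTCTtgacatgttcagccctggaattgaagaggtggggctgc
Cdkn2b, chr4:89311040-89311282, minus strand: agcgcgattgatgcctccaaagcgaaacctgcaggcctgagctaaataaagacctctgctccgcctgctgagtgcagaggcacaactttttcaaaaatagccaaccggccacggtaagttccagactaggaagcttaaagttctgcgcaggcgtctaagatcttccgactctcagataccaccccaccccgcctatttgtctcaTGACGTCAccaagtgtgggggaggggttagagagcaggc
Cdkn2a, chr4:89294654-89294869, minus strand: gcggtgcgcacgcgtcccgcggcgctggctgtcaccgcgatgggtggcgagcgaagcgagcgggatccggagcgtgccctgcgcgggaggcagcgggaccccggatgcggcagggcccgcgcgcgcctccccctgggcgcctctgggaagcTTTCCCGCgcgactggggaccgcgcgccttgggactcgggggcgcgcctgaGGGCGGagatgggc
The *Cdkn1a* window shown held 2 p53 half-sites, 73 to 64 and 51 to 42 bases before the start, whereas the window of its other start (chr17:29093519-29093768), not shown, held 2 GC boxes and no half-site. At least 1 half-site was found in 7.13% of all 32851 windows. The *Cdkn2b* window held TGACGTCA 46 to 39 bases before the start, as did 1.55% of all windows at any position. The *Cdkn2a* window shown, at the start of the longer gene span, held an E2F site 99 to 92 bases before the start, found in 1.3% of all windows, and 2 GC boxes, of which 1 lies in the bases left off. The window of the other *Cdkn2a* start (chr4:89282193-89282442), not shown, held 0 matches to any of the motifs. GC boxes were found in 32.7% of all windows and in 6 of the 10 windows of members, TATAAA in 12.4% and only for *Cdk6* among members, and TGACTCA in 4.46% and in no window of a member. A match is a description of the letters and not evidence of binding.

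The other genes of the pathway were taken from lists of 67 genes, none of them a member, of which 66 were tested. Of these, 14 rose and 32 fell in CPCCs and 20 were not called (edgeR's quasi-likelihood test, adjusted p under 0.05 over all 12471 genes). Over all genes tested, 31.7% were called higher and 29.7% lower. The median log2 fold change of the 66 genes was -0.60, against 0.031 over all genes tested. Without 1 library at a time, 12 to 14 rose and 28 to 32 fell.

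**Figure D3:**
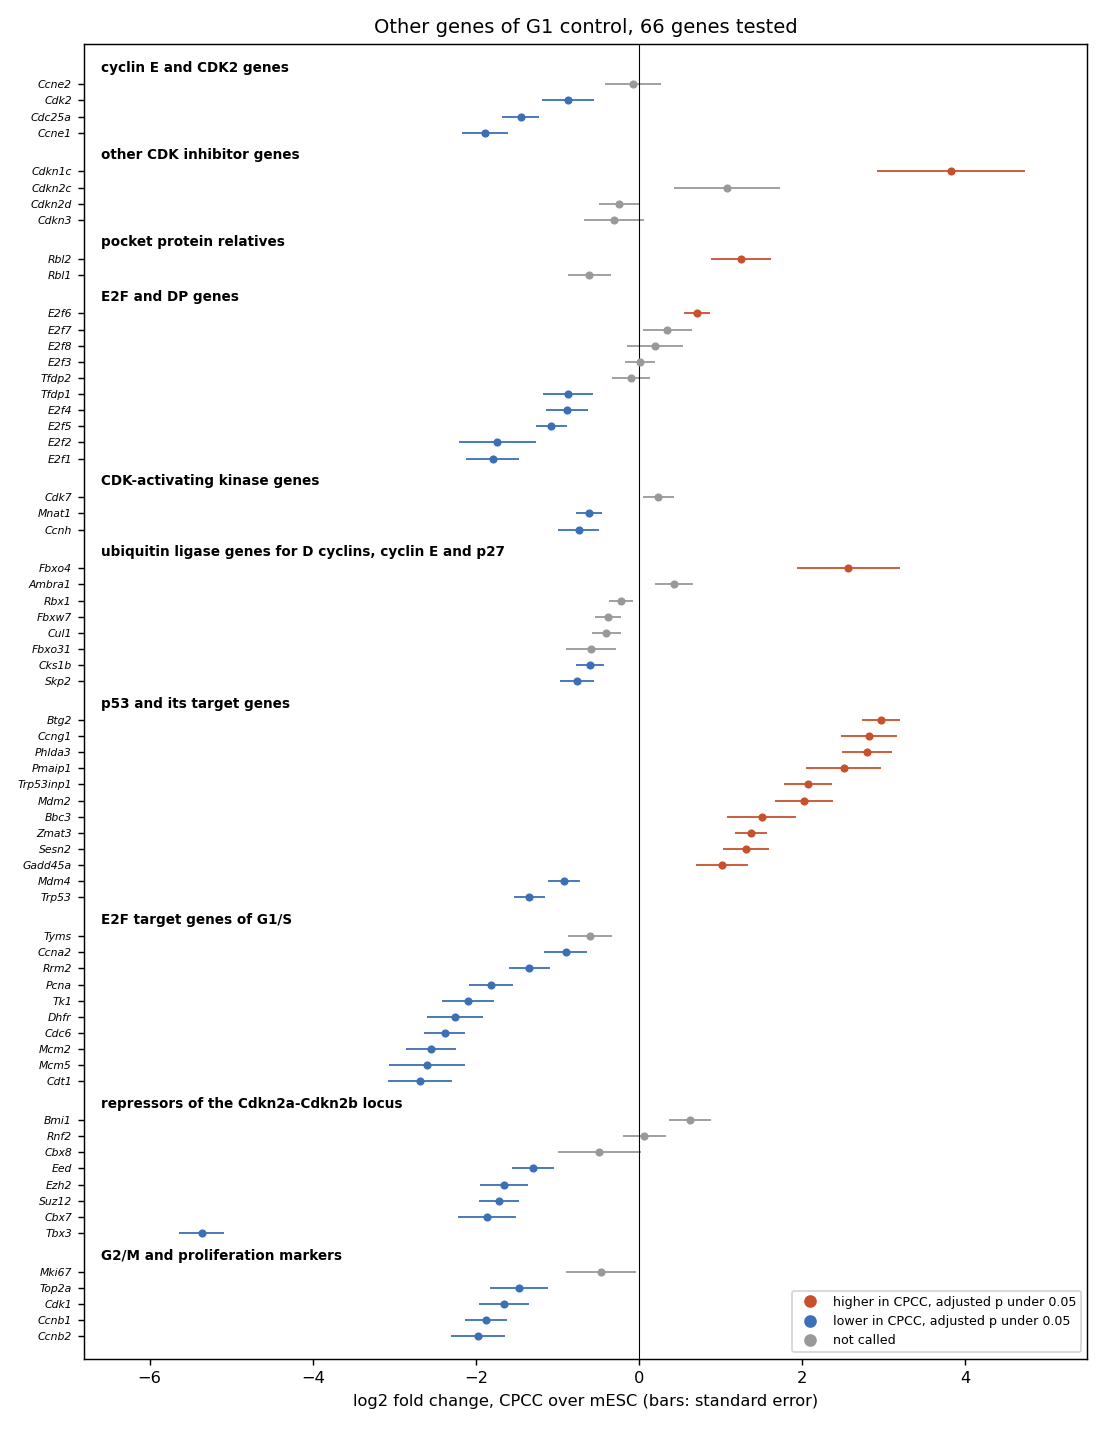
Log2 fold changes (CPCC over mESC) of the 66 pathway genes tested, with standard errors as bars, grouped by list; orange marks genes called higher in CPCCs, blue called lower and grey not called (edgeR, adjusted p under 0.05). Of the 12 p53 genes 10 lie to the right, and the 10 E2F target genes lie to the left.

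Genes of cyclin E and CDK2, the next step after the D cyclins, fell in 3 of 4 cases (median log2 fold change -1.16). *Ccne1*, encoding cyclin E1, had 393, 413 and 330 CPM in mESCs against 60.7, 105 and 140 CPM in CPCCs, a log2 fold change of -1.89 (edgeR adjusted p = 0.000432). *Cdc25a*, the phosphatase that activates CDK2, fell by 1.45 on the log2 scale (edgeR adjusted p = 0.000567). *Cdk2* fell by 0.87 on that scale (edgeR adjusted p = 0.039) but was not called without S03, S04 or S05. *Ccne2* overlapped between the groups, with a log2 fold change of -0.08 (edgeR adjusted p = 0.86), and its sign turned without S03 or S04.

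Among 4 further CDK inhibitor genes, *Cdkn1c*, which encodes p57, rose, with a log2 fold change of 3.82 (edgeR adjusted p = 0.00553). Its CPCC libraries stood at 65.1, 6.67 and 9.05 CPM, so that S04 set much of the mean, and the log2 fold change was 2.06 without S04. The INK4 genes *Cdkn2c* and *Cdkn2d* and the phosphatase gene *Cdkn3* were not called, at log2 fold changes of 1.08, -0.24 and -0.31. Of the relatives of *Rb1*, *Rbl2*, encoding p130, rose from 6.00, 5.19 and 12.4 CPM to 20.5, 20.5 and 15.3 CPM (log2 fold change 1.25, edgeR adjusted p = 0.016), a call lost without S01, S02 or S05. *Rbl1*, encoding p107, was not called at -0.61 (edgeR adjusted p = 0.0709).

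Of 10 genes for E2F factors and their DP partners, 5 fell, 1 rose and 4 were not called (median log2 fold change -0.49). Without S05, 3 fell. *E2f1*, an activator of S phase genes, had 124, 153 and 120 CPM in mESCs against 20.5, 38.8 and 55.4 CPM in CPCCs, a log2 fold change of -1.79 (edgeR adjusted p = 0.00126). *E2f2*, another activator, and *E2f5*, a partner of the pocket proteins, had log2 fold changes of -1.74 and -1.07 (edgeR adjusted p = 0.0108 and 0.00112). The gene that rose was *E2f6*, a repressor that acts without RB1, at 0.71 (edgeR adjusted p = 0.00462).

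E2F target genes of the G1 to S transition fell in 9 of 10 cases, with a median log2 fold change of -2.18, and in 8 without S03. The falls were largest in *Cdt1*, *Mcm5* and *Mcm2*, which license replication origins, at -2.69, -2.60 and -2.55 (edgeR adjusted p = 0.000356, 0.0012 and 0.000121). *Cdt1* had 435, 474 and 470 CPM in mESCs against 32.0, 68.0 and 114 CPM in CPCCs, without overlap. The remaining gene, *Tyms*, named because it was the exception, had -0.60 (edgeR adjusted p = 0.0855). Of 5 G2/M and proliferation markers, *Ccnb2*, *Ccnb1*, *Cdk1* and *Top2a* fell, with log2 fold changes of -1.97, -1.88, -1.65 and -1.47 (edgeR adjusted p = 0.000789, 0.000294, 0.00138 and 0.0059). *Mki67* stood at 376, 440 and 400 CPM in mESCs against 100, 337 and 445 CPM in CPCCs, overlapped between the groups and was not called (edgeR adjusted p = 0.367).

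Of the 3 genes of the CDK-activating kinase, *Ccnh* and *Mnat1* fell, with log2 fold changes of -0.74 and -0.61 (edgeR adjusted p = 0.0282 and 0.00865) and *Cdk7* was not called at 0.24. The call of *Ccnh* was lost without S01, S03, S05 or S06. Among 8 ubiquitin ligase genes for D cyclins, cyclin E and p27, *Fbxo4*, whose product has been linked to cyclin D1 turnover, rose by 2.56 (edgeR adjusted p = 0.00663) at low levels of 0.294 to 1.85 CPM in mESCs against 4.37 to 8.45 CPM in CPCCs. *Skp2* and *Cks1b*, which together mark p27 for degradation, fell, at -0.76 and -0.60 (edgeR adjusted p = 0.0106 and 0.0145). The call of *Skp2* was lost without S02 and that of *Cks1b* without S01.

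Genes of p53 and its targets, the list to which *Cdkn1a* itself would belong, rose in 10 of 12 cases and fell in 2, with a median log2 fold change of 1.76. The 3 largest rises were in *Btg2*, an antiproliferative gene, *Ccng1*, encoding cyclin G1, and *Phlda3*, an inhibitor of AKT, at 2.97, 2.82 and 2.80 (edgeR adjusted p = 1.26e-05, 0.000133 and 7.77e-05). *Ccng1* had 255, 206 and 208 CPM in mESCs against 2554, 1152 and 1022 CPM in CPCCs, and *Btg2* had 45.0, 42.1 and 52.2 CPM and 476, 342 and 275 CPM. In both genes S04 was the highest library, as for *Cdkn1a*. *Trp53* itself, encoding p53, fell from 332, 340 and 232 CPM to 105, 120 and 131 CPM (log2 fold change -1.34, edgeR adjusted p = 0.000352). *Mdm4*, encoding an inhibitor of p53, fell as well (-0.92, edgeR adjusted p = 0.00275).

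**Figure D4:**
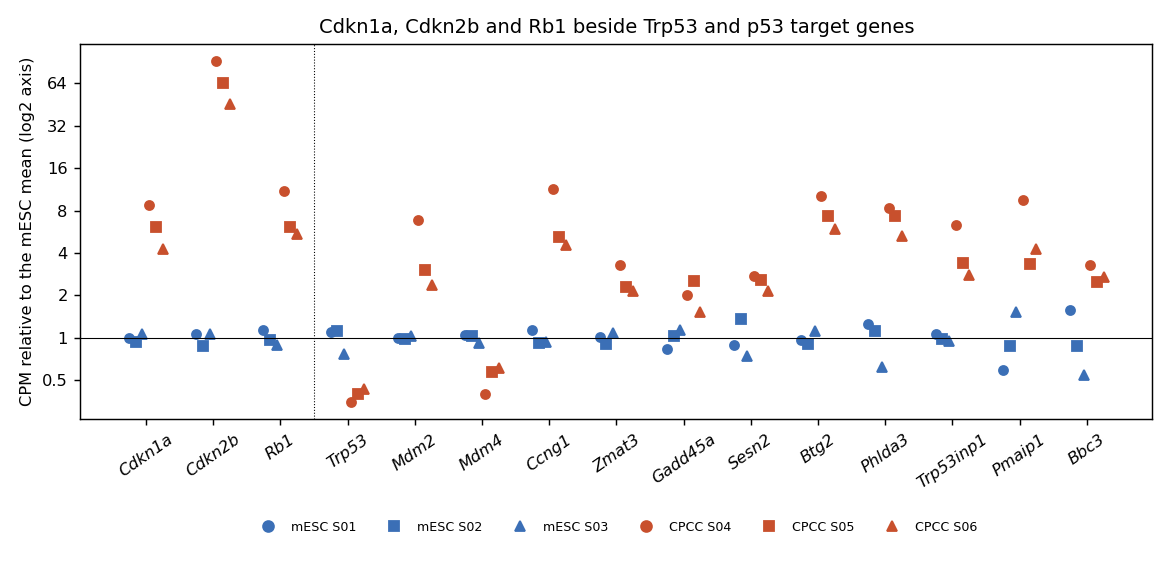
Levels of *Cdkn1a*, *Cdkn2b* and *Rb1* (left of the dotted line) and of *Trp53* and p53 target genes in each library, as CPM relative to the mESC mean on a log2 axis; blue marks are mESC libraries and orange marks CPCC libraries. *Trp53* and *Mdm4* lie below 1 in the CPCC libraries and the other genes above it, with S04 highest for 9 of the 12 p53 genes.

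Of 9 genes for repressors of the *Cdkn2a* and *Cdkn2b* locus, 8 were tested, 5 fell and 0 rose, with a median log2 fold change of -1.48. *Tbx3*, a T-box repressor, had 64.6, 64.7 and 51.8 CPM in mESCs against 1.09, 1.58 and 1.72 CPM in CPCCs, a log2 fold change of -5.36 (edgeR adjusted p = 1.88e-06). *Cbx7* and *Suz12*, which belong to Polycomb complexes, had log2 fold changes of -1.86 and -1.71 (edgeR adjusted p = 0.00164 and 0.000305). *Tbx2*, a close relative of *Tbx3*, is listed only for CPCCs, at 5.86, 11.2 and 18.5 CPM, and was at least 26.4-fold higher there. The 3 genes not called were *Bmi1*, *Rnf2* and *Cbx8*, Polycomb genes named after their values were seen, at log2 fold changes of 0.62, 0.064 and -0.48. *Bmi1* stood at 25.3, 21.8 and 27.2 CPM in mESCs against 49.6, 26.7 and 37.9 CPM in CPCCs. It was the 1 gene of the list higher at an unadjusted p under 0.05, and the 1 called without S05, while DESeq2 called 0 rises.

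Within CPCCs, S04 often lay at one end of the range. Against the mean of S05 and S06 it was higher by 0.94 for *Rb1*, 0.77 for *Cdkn1a* and 0.76 for *Cdkn2b* and lower for *Cdk4* (-0.48) on the log2 scale, and these values lay inside the 5th to 95th percentile range over all genes tested, -1.48 to 1.05, whose median was -0.031. Of the 9 members tested, S04 was the highest CPCC library for 5 and the lowest for 3. It was the lowest CPCC library for all 10 E2F target genes, all 5 G2/M and proliferation markers and all 4 cyclin E and CDK2 genes, and for 43.1% of all genes tested. It was the highest for 9 of the 12 p53 genes, and for 38.8% of all genes tested. Among marker sums, S04 was the highest CPCC library for cardiac progenitor (156 CPM, of which *Tnnt2* gave 103 CPM), smooth muscle (11069 CPM), endothelial (25.4 CPM) and blood markers (22.3 CPM). It was the lowest for pluripotency (107 CPM) and endoderm markers (13.7 CPM), and between the others for mesenchyme and neural markers. Whether these marker levels bear on its values for the members was not tested.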

How the data were processed

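Bulk RNA-seq of 3 mESC and 3 CPCC libraries (polyA selection, SMART-Seq v4) was used. The authors deposited 1 table per cell type with their estimated counts for each gene, without normalization, and each table leaves out genes under 10 counts over its 3 libraries. The submitters' processing notes name STAR 2.7 and mm10, and the counter and the use of strand are not given in the sources used here. Between 17.9% and 21.5% of the values were not whole, and counts were rounded. Positions are those of the tables, where the end of several members lies 1 base past that in RefSeq. The columns carry no replicate numbers, so groups came from the tables, and p-values measure the spread between these libraries.

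The 13001 genes in both tables passed through filterByExpr, leaving 12471, and were fitted with edgeR 4.0.16 (TMM, quasi-likelihood test, Benjamini-Hochberg) in R 4.3.3. DESeq2 1.42.0 was an alternative. A level of 3 counts per library is the floor for a missing gene, and floors and intervals cover counting error only. mRNA lengths are those of the longest principal transcript in GENCODE M21. The members and lists were chosen with earlier results of these data known. Of lists over 5 genes, the 3 largest called rises and falls are named, and of shorter lists every gene. Figures were drawn with matplotlib 3.10.9. Allele-specific, single-cell and chromatin data were not analysed here.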

Additional observations from a re-analysis of the deposited data

How the results depend on the processing

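No paired analysis was possible because the columns of the tables carry no replicate numbers. With 1 library left out at a time, the lists gave 0 to 1 rises and 0 to 1 falls among the pocket protein relatives, 3 to 5 falls among E2F and DP genes, 1 to 2 falls in the CDK-activating kinase, 1 to 3 falls among the ubiquitin ligase genes and 0 to 1 rises among the repressors of *Cdkn2a* and *Cdkn2b*. Where 10 counts were asked of each library and so fewer genes were tested, the further CDK inhibitor genes gave 0 rises, the ubiquitin ligase genes 0 rises, the members 5 rises and the repressors 1 rise. With genes missing from a table set to 0 counts the repressors gave 1 rise. Set to 3 counts, they gave 1 rise, the pocket protein relatives 1 fall and the ubiquitin ligase genes 4 falls. Per kb of mRNA, *Ccnd1* held 14.9% and 16.8% of the D cyclin sum in mESCs and CPCCs, *Ccnd3* 85.1% and 26.0%, and *Ccnd2* 57.2% in CPCCs, and the inhibitor sum was 138 and 1168. The sign turned for *Ccne2* (0.16 without S03, 0.14 without S04), *Cdk4* (0.013 without S04), *Cdkn1b* (0.15 without S03, 0.022 without S04) and *Cdkn3* (0.023 without S04), none of which was called. Their log2 fold changes with 1 library left out ranged from -0.30 to 0.16, -0.24 to 0.013, -0.20 to 0.15 and -0.63 to 0.023. Over all genes tested, 6536 to 7895 were called with 1 library left out, 7896 by DESeq2 and 9011 with missing genes at 3 counts, against 7656. Except where stated, the cause was not tested.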
